A study of Mus musculus with 16 samples.

Results

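Translation initiation factors are the proteins that bring the ribosome, the initiator tRNA and an mRNA together at a start codon. The genes described here are the rows of the deposited tables whose symbol starts with Eif and a digit, leaving out pseudogenes and the sex-linked pair Eif2s3x and Eif2s3y, and having a read in at least 1 library. Of 24421 genes in the tables, 53 met the symbol rule and 51 of them had a read. The remaining pair, Eif3j1 and Eif3j2, was listed at 0 in all 12 libraries. Their exons share long identical stretches with each other, and Eif3j1 also overlaps other genes. Eif4e1b, an eIF4E relative of the germ line, had at most 2 reads in a library and none in any AcPbKO library, so 51 genes were tested in wild-type mice and 50 in AcPbKO mice. Every other gene had between 106 and 57730 reads in each library.

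The libraries came from somatosensory cortex of mice that were 2 to 3 months old and had been bred in the study's colony for 5 to 7 generations. Wild-type (WT) mice were C57BL/6 (C57/BL6J in the study's methods) and AcPbKO mice were homozygous for loss of AcPb, the brain isoform of the interleukin-1 receptor accessory protein made from Il1rap. Sleep disruption (SD) by gentle handling ran for 8 h, from zeitgeber time (ZT, hours after lights on) 20 to ZT4, and control (CTL) mice stayed undisturbed until the same collection time of ZT4. Each of the groups CTL-WT, SD-WT, CTL-AcPbKO and SD-AcPbKO had 3 libraries, all of mice labelled male, and the labels do not say whether the genotypes were littermates. Libraries are always listed here in the order CTL-WT replicates 1, 2 and 3, SD-WT replicates 1, 2 and 4, CTL-AcPbKO replicates 3, 4 and 5, and SD-AcPbKO replicates 2, 3 and 4. Levels are normalized counts, that is reads divided by 1 size factor per library estimated over all 12 libraries.

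Some properties of the libraries moved with the groups. SD libraries held 58770286 to 71857505 reads and CTL libraries 26504840 to 41615582, so the smallest SD library was 1.41 times as deep as the largest CTL library. CTL-WT replicates 2 and 3 and CTL-AcPbKO replicates 4 and 5 carried 25352 to 39358 reads of Xist and at most 2 reads of the Y-linked genes examined, which goes against their male label, whereas no SD library did. Presence of Xist and SD thus moved together, and fold changes without these controls are given beside the main ones for the initiation factors called. SD-AcPbKO replicate 4 held choroid plexus mRNA, with a summed level of the 5 markers of 17959 normalized counts against 304 to 587 in all other libraries. Markers of cortical excitatory neurons were present in every library, with sums of 100242 to 115266, and of the 8, 3 were higher and 2 lower after SD in wild-type mice, and 2 and 1 in AcPbKO mice. The 5 microglial markers summed to 11404 to 12456 in CTL-AcPbKO and 8529 to 10403 in SD-AcPbKO, without overlap and with 2 called as lower, while the wild-type groups overlapped with 0 called. Of 5 astrocyte markers 2 were lower after SD in wild-type and 1 in AcPbKO mice, and of 4 endothelial markers 2 were higher and 1 lower in each genotype. The 6 oligodendrocyte markers summed to 106978 to 136457 in CTL-WT, 86352 to 119034 in SD-WT, 53954 to 124101 in CTL-AcPbKO and 69595 to 104115 in SD-AcPbKO, and 4 of them passed the test as lower after SD in wild-type mice and 1 in AcPbKO mice. The 9 striatal markers summed to 12682 to 26327 across libraries, and 2 of them were lower after SD in wild-type mice. The part of the markers in the results was not tested. In tissue RNA, fewer cells of a type and less RNA per cell cannot be told apart.

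Initiation starts when eIF2, loaded with GTP and the initiator tRNA as the ternary complex, joins the small ribosomal subunit together with eIF1, eIF1A, eIF5 and the many-subunit scaffold eIF3. The eIF4F complex, made of the cap-binding protein eIF4E, the scaffold eIF4G and the helicase eIF4A, brings the mRNA, and eIF5B joins the large subunit once the start codon is found. In neurons the pathway is controlled by kinases that phosphorylate eIF2 and so block its recycling by eIF2B, and by the eIF4E-binding proteins, which release eIF4E when mTOR phosphorylates them. The counts below are mRNA levels and do not measure phosphorylation or protein.

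After SD, the mRNAs of eIF2 alpha and beta, eIF5B, eIF5, the large eIF3 subunit Eif3a the eIF4A helicase gene Eif4a2, the cap-binding relatives Eif4e2 and Eif4e3 and the scaffolds Eif4g1 and Eif4g2 were higher in both genotypes, and those of Eif3f, Eif6 and Eif4ebp1 were lower. In wild-type mice 19 of 51 genes passed an adjusted p of 0.05 (limma), 15 higher and 4 lower, where 25.4% of all 20417 genes tested did, 13.2% higher and 12.2% lower. In AcPbKO mice 24 of 50 genes passed, 17 higher and 7 lower, where 27.4% of all genes did, 14.1% higher and 13.3% lower. The median log2 fold change of the initiation factors was 0.050 in wild-type and 0.044 in AcPbKO mice, against -0.0039 and 0.014 over all genes. The groups of 3 libraries did not overlap for 23 of 51 genes in wild-type mice and 33 of 50 in AcPbKO mice, against 40.2% and 42.3% of all genes. Higher calls thus took a larger share of the initiation factors than of all genes in both genotypes, and lower calls a smaller share in wild-type mice and about the same share in AcPbKO mice. All genes, here and below, include any with a read in the libraries compared. Every initiation factor but Eif4e1b had at least 106 reads in each library, so these shares do not compare genes of like level. Together the 51 mRNAs made up 0.563 to 0.585% of reads in CTL-WT, 0.590 to 0.624% in SD-WT, 0.541 to 0.550% in CTL-AcPbKO and 0.577 to 0.601% in SD-AcPbKO.

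**Figure D1:**
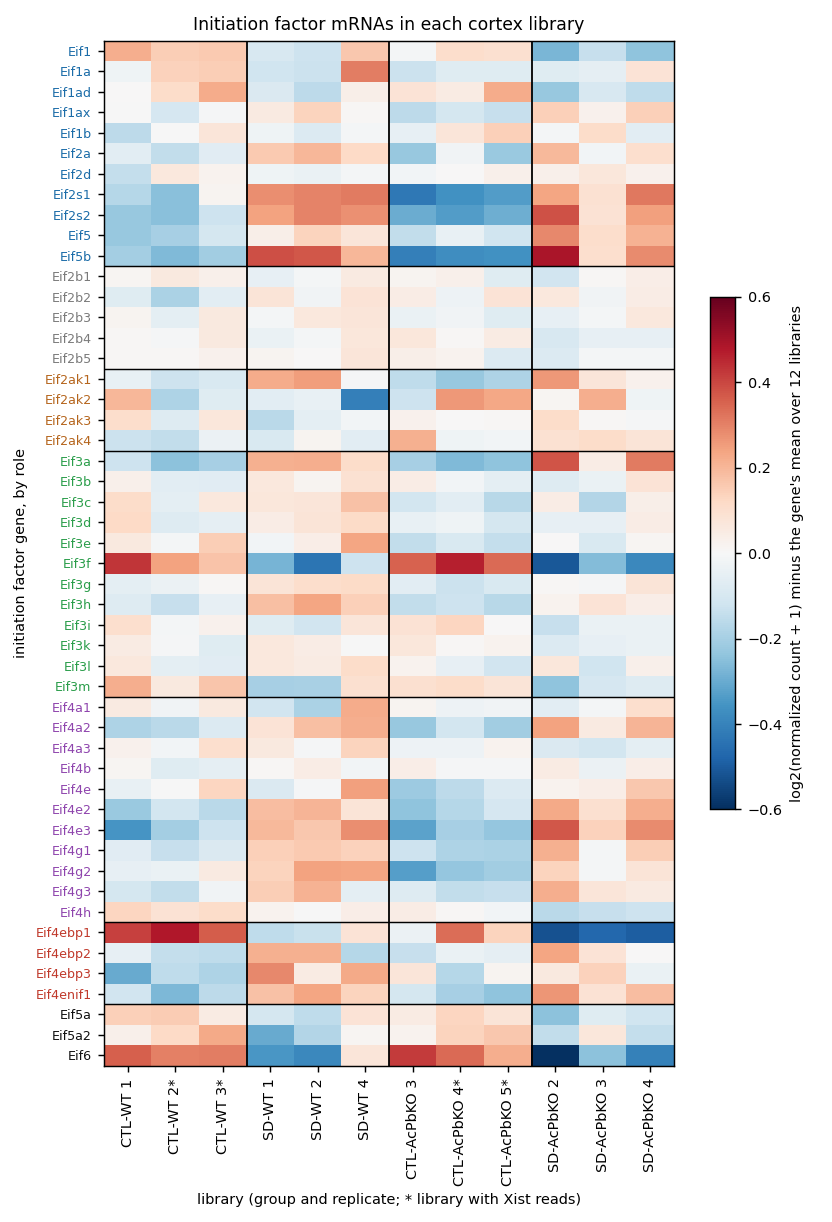
Level of each initiation factor mRNA (rows, grouped by role, Eif4e1b left out) in each of the 12 libraries (columns, asterisks marking libraries with Xist reads), as log2(normalized count + 1) minus the gene's mean over 12 libraries. Rows such as Eif2s1, Eif2s2 and Eif5b turn from blue in CTL to red in SD in both genotypes, and Eif3f, Eif6 and Eif4ebp1 do the opposite, while the 5 eIF2B rows stay pale.

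The comparisons in wild-type and AcPbKO mice share no library. Of the genes called, 17 were called in both genotypes, 14 higher and 3 lower, which is 89.5% of the 19 wild-type calls and 70.8% of the 24 AcPbKO calls, against 74.6% and 68.7% over all genes. The sign of the fold change was the same in both genotypes for 43 of 50 initiation factors (86%), against 79.6% of all genes. Across the 50 genes the fold changes had a Pearson correlation of 0.944, given as a description since the genes share libraries. Only Eif4ebp3 and Eif5a2 were called in wild-type mice alone, and Eif1, Eif1ad, Eif1ax, Eif3m, Eif4e, Eif4g3 and Eif5a in AcPbKO mice alone, although the test of the difference between genotypes called none of these. All 19 wild-type and all 24 AcPbKO calls kept their sign without the controls that carry Xist reads. Their SD and CTL libraries did not overlap, so leaving out controls could not change the sign. With presence of Xist as a term in a fit of all libraries, 14 of the 17 shared genes were still called in both genotypes. The exceptions were Eif2ak1, Eif4g1 and Eif4ebp1 in wild-type mice. Fits without the Xist controls keep only 1 control in each genotype, so they cannot show whether a call holds apart from presence of Xist. Their fold changes are given below without counts of calls.

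**Figure D2:**
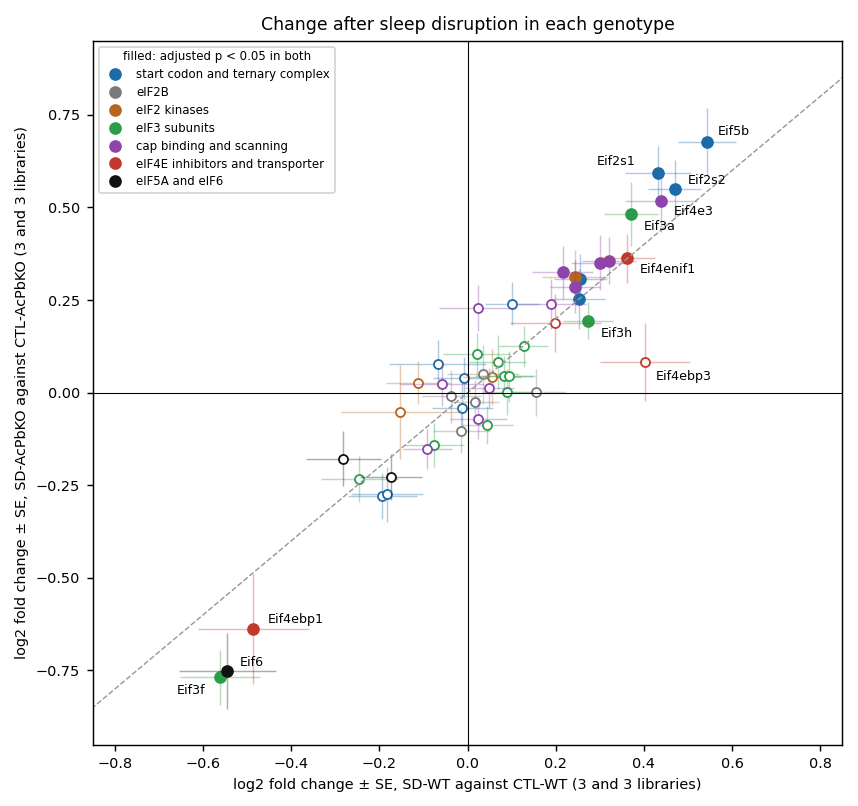
Log2 fold change after SD in wild-type (horizontal axis) and AcPbKO mice (vertical axis) for 50 initiation factors, with standard errors as lines and colours for roles. Filled points passed an adjusted p of 0.05 in both genotypes and the dashed line marks equal change, and the filled points lie in the upper right and lower left corners only.

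The factors of the start codon and the ternary complex held the largest increases. Eif5b, the GTPase that joins the ribosomal subunits (chr1:37998010-38055579 in mm10), had normalized counts of 4722, 4533 and 4714 in CTL-WT, 7114, 7036 and 6245 in SD-WT, 4092, 4197 and 4229 in CTL-AcPbKO and 7641, 5827 and 6622 in SD-AcPbKO. Every SD library stood above every CTL library of its genotype. The log2 fold change was 0.54 ± 0.065 (SE, 1.46-fold, adjusted p = 0.000628) in wild-type mice and 0.68 ± 0.092 (1.60-fold, adjusted p = 0.00161) in AcPbKO mice, and 0.52 and 0.71 without the Xist controls. Eif5b was at 0.47 and 0.54 with GC and length trends removed. Part of its exons, 11.7% of 100-base stretches, lies over Rev1 on the other strand.

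Both eIF2 subunits among the genes rose together. Eif2s1, the alpha subunit that the stress kinases phosphorylate (chr12:78861819-78887010), had normalized counts of 1824, 1724 and 2076 in CTL-WT, 2494, 2527 and 2549.7 in SD-WT, 1522, 1596 and 1624 in CTL-AcPbKO and 2417, 2188 and 2554 in SD-AcPbKO. Eif2s2, the beta subunit (chr2:154871410-154892935), had normalized counts of 2177, 2147 and 2340.2 in CTL-WT, 3014, 3132 and 3084 in SD-WT, 2076, 2025 and 2084 in CTL-AcPbKO and 3329, 2711 and 3024 in SD-AcPbKO. In both genes the lowest SD library lay above the highest control of its genotype, and the AcPbKO controls were the lowest libraries of all. Eif2s1 changed by 0.43 ± 0.074 in wild-type mice (adjusted p = 0.00296) and 0.59 ± 0.071 in AcPbKO mice (adjusted p = 0.00109), and Eif2s2 by 0.47 ± 0.060 (adjusted p = 0.000800) and 0.55 ± 0.078 (adjusted p = 0.00191). Without the Xist controls the values were 0.47 and 0.65 for Eif2s1 and 0.50 and 0.54 for Eif2s2. The annotated gene Gm9892 shares 6.53% of the 100-base stretches of Eif2s2.

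Smaller increases were found for Eif5, the GTPase-activating protein of eIF2, and Eif2a, a factor that can deliver initiator tRNA independently of eIF2. Eif5 had normalized counts of 10459.7, 10675 and 11366 in CTL-WT, 12528, 13423 and 12869.8 in SD-WT, 11033, 11874 and 11275 in CTL-AcPbKO and 14942, 13158 and 14135 in SD-AcPbKO. Its fold change was 0.26 ± 0.061 in wild-type (adjusted p = 0.0125) and 0.31 ± 0.067 in AcPbKO mice (adjusted p = 0.0106). Eif2a had normalized counts of 1827, 1724 and 1821 in CTL-WT, 2132, 2193 and 2078 in SD-WT, 1635, 1884 and 1636 in CTL-AcPbKO and 2187, 1892 and 2047 in SD-AcPbKO. Neither gene's groups overlapped, but the margin was narrow for Eif2a in AcPbKO mice, where 1 control reached 1884 and 1 SD library was at 1892. Eif2a changed by 0.25 ± 0.060 in wild-type (adjusted p = 0.0125) and 0.25 ± 0.082 in AcPbKO mice (adjusted p = 0.0494). When the Xist controls were left out, Eif5 was at 0.31 and 0.35 and Eif2a at 0.22 and 0.32. With GC and length trends removed, the AcPbKO value of Eif5 was 0.18 (adjusted p = 0.0373) and that of Eif2a 0.12, which was not called (adjusted p = 0.217). Either alternative pseudocount, centring and thinning to equal depth also ended the AcPbKO call of Eif2a, with adjusted p of 0.0510 to 0.0559. The calls depended on single libraries. That of Eif5 in wild-type mice ended without CTL-WT replicate 2 or SD-WT replicate 2, with adjusted p up to 0.0636. Eif2a was no longer called without CTL-WT replicate 2 or SD-WT replicate 1 or 2 in wild-type mice, with adjusted p up to 0.0706, nor without CTL-AcPbKO replicate 3 or 5 or SD-AcPbKO replicate 2 or 4, with adjusted p up to 0.165.

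Eif1, which keeps the scanning ribosome in its open state, went the other way. It had normalized counts of 10698, 10181 and 10255 in CTL-WT, 8593, 8449 and 10306 in SD-WT, 9129, 9895 and 9827 in CTL-AcPbKO and 7599, 8362 and 7783 in SD-AcPbKO. All SD-AcPbKO libraries lay under their controls, but SD-WT replicate 4 stood among the CTL-WT libraries. The fold change was -0.28 ± 0.062 in AcPbKO mice (adjusted p = 0.0117) and -0.19 ± 0.078 in wild-type mice (adjusted p = 0.0984). The AcPbKO call ended without CTL-AcPbKO replicate 4 (adjusted p = 0.0560) and with a term for Xist (adjusted p = 0.0514), and the value was -0.20 without the Xist controls. Eif1ax, the X-linked eIF1A gene, was higher in AcPbKO mice (0.24 ± 0.057, adjusted p = 0.0158) and Eif1ad, a protein with an eIF1A-like domain, was lower (-0.27 ± 0.074, adjusted p = 0.0250), and both calls ended without CTL-AcPbKO replicate 5 or SD-AcPbKO replicate 2 or 4, with adjusted p up to 0.0674 and 0.0919. The call of Eif1ad also ended with a term for Xist (-0.21, adjusted p = 0.114) and that of Eif1ax with GC and length trends removed (0.12, adjusted p = 0.0889), and without the Xist controls they were at -0.24 and 0.26. The wild-type values of Eif1ax and Eif1ad were 0.10 ± 0.061 (adjusted p = 0.265) and -0.18 ± 0.081 (adjusted p = 0.129). Eif1a, Eif1b and Eif2d were called in neither genotype, with log2 fold changes between -0.068 and 0.079.

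Promoters of genes called in both genotypes, rising or falling, are described next, and 5 are printed. Whether these genes share a control was not tested. RefSeq (GRCm38.p6) held the promoter of 40 of the 51 genes and of 12 of the 17 called in both genotypes, with no entry for Eif3h, Eif4e3, Eif4ebp1, Eif4g2 and Eif6. The 250 bases before each start were searched on both strands for GGGCGG (the GC box), CCAAT (the CAAT box), CACGTG (the E-box), CGGAAG (the ETS core) and TGACGTCA (the cyclic AMP response element), which do not overlap one another in the stretches printed. The GC box was in 28 of 40 initiation factor promoters (70%) against 32.9% of all 27025 promoters, and in 9 of the 11 genes that rose in both genotypes and have an entry. Of the same 11, 2 held CGGAAG, 2 CCAAT and 1 CACGTG. Over all initiation factors CGGAAG was in 16 of 40 (40%) against 13.8%, CACGTG in 7 (17.5%) against 6.05%, CCAAT in 12 (30%) against 34.5%, and TGACGTCA in none against 1.62%. Among genes called in both genotypes with an entry and a stretch outside the annotated gene, the 4 that rose most and the only 1 that fell were chosen. Their 150 bases before the RefSeq start are printed, 5′ to 3′ on the gene's strand with motif matches in capitals. They are chr1:37997860-37998009 for Eif5b, chr19:60790694-60790843 for Eif3a (minus strand), chr11:3202203-3202352 for Eif4enif1, chr1:87213761-87213910 for Eif4e2 and chr7:108934265-108934414 for Eif3f, on the plus strand where no strand is named.
Eif5b: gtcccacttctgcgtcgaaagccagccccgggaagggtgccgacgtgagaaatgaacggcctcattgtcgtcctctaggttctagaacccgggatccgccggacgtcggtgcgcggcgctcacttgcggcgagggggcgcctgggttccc
Eif3a: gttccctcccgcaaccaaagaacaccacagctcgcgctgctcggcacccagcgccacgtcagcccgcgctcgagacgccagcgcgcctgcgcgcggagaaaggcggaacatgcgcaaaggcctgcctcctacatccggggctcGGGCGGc
Eif4enif1: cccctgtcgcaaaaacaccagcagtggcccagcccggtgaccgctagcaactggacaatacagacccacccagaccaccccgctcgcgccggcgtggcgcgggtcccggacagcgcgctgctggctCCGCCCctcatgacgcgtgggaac
Eif4e2: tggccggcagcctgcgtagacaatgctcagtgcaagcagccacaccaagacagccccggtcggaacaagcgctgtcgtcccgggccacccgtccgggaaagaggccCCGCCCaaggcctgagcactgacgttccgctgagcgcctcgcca
Eif3f: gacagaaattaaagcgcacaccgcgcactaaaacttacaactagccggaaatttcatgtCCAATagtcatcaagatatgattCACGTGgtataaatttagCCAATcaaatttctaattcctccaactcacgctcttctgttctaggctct
The 4 rising genes had 66.7 to 70.7% G and C in these 150 bases, with a GC box in all but Eif5b, whereas the stretch of Eif3f had 39.3% and held CCAAT at 2 places and the E-box once. These matches are letters in a window and do not show binding. The contrast is of 4 genes with 1, and the share of G and C in other promoters was not examined.

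The exchange factor eIF2B, which reloads eIF2 with GTP and is blocked by phosphorylated eIF2, gave no call. None of its 5 subunit genes was called in either genotype, where 25.4% of all genes were in wild-type and 27.4% in AcPbKO mice. The log2 fold changes of the 5 lay between -0.10 and 0.15, the upper value being Eif2b2 in wild-type mice (0.15 ± 0.068, adjusted p = 0.126). Their standard errors were 0.055 to 0.081. SD and CTL libraries did not overlap for 1 of the 5 in each genotype, against 40.2% and 42.3% of all genes. These were Eif2b2, higher after SD in wild-type mice, and Eif2b4, lower after SD in AcPbKO mice. Eif2b5, the catalytic subunit, had normalized counts of 2715, 2719.8 and 2751 in CTL-WT, 2735, 2709.6 and 2843 in SD-WT, 2771, 2739 and 2551 in CTL-AcPbKO and 2553, 2678 and 2677 in SD-AcPbKO, and SD and CTL libraries overlapped in both genotypes.

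Of the 4 kinases that phosphorylate eIF2, 1 was called in each genotype (25%), near the 25.4% and 27.4% of all genes. That was Eif2ak1 (HRI, the heme-regulated kinase, chr5:143817788-143904251). It had normalized counts of 4042, 3834 and 3914 in CTL-WT, 4865, 4974 and 4156 in SD-WT, 3752, 3563 and 3675 in CTL-AcPbKO and 5008, 4394 and 4256 in SD-AcPbKO. Both pairs of groups stayed apart, though SD-WT replicate 4 was close to the highest control. Its fold change was 0.24 ± 0.074 in wild-type (adjusted p = 0.0359) and 0.31 ± 0.071 in AcPbKO mice (adjusted p = 0.0125). The wild-type call did not withstand a term for Xist (adjusted p = 0.139) or thinning to equal depth (adjusted p = 0.0651) and held only without SD-WT replicate 4 among the 6 ways of leaving out a library, with adjusted p up to 0.149, while the AcPbKO call ended without CTL-AcPbKO replicate 4 (adjusted p = 0.0561). Without the Xist controls the values were 0.20 and 0.28. Aimp2 and Ankrd61 overlap it on the other strand, and 6.99% of its stretches are shared.

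The remaining kinases gave no call. Eif2ak2 (PKR, the kinase of double-stranded RNA) had normalized counts of 456, 349 and 378 in CTL-WT, 380.1, 385 and 298 in SD-WT, 364, 475 and 467 in CTL-AcPbKO and 399.6, 462 and 390.2 in SD-AcPbKO. Eif2ak3 (PERK, the kinase of the endoplasmic reticulum) had normalized counts of 1810.2, 1594 and 1766 in CTL-WT, 1502, 1615 and 1663 in SD-WT, 1716, 1684 and 1691 in CTL-AcPbKO and 1815, 1694 and 1673 in SD-AcPbKO. Eif2ak4 (GCN2, the kinase of amino acid shortage) had normalized counts of 1447, 1428 and 1542 in CTL-WT, 1482, 1598 and 1513 in SD-WT, 1830.3, 1550.3 and 1562 in CTL-AcPbKO and 1687, 1707 and 1670.0 in SD-AcPbKO. In each of them the SD and CTL libraries overlapped in both genotypes, and the fold changes lay between -0.15 and 0.056, with adjusted p of 0.288 to 0.792. The signs of some of these small values changed with the choice of libraries and terms.

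Among the 12 measured subunits of eIF3, the scaffold that holds the small subunit and the other factors, Eif3a and Eif3h rose and Eif3f fell in both genotypes, Eif3m fell in AcPbKO mice, and the other 8 were called in neither, with values between -0.14 and 0.13. The share called was 25% in wild-type and 33.3% in AcPbKO mice, near the 25.4% and 27.4% of all genes. Eif3a, the largest subunit (chr19:60761117-60790658), had normalized counts of 8981, 8248 and 8540.5 in CTL-WT, 11356, 11410.1 and 10571 in SD-WT, 8542, 8157 and 8289 in CTL-AcPbKO and 12736, 10109 and 12148 in SD-AcPbKO. Eif3h, a subunit of the module with MPN domains, had normalized counts of 4408, 4217 and 4486 in CTL-WT, 5268, 5465 and 5127 in SD-WT, 4197, 4262 and 4136 in CTL-AcPbKO and 4712, 4909 and 4765 in SD-AcPbKO. In both genes every SD library stood above every control of its genotype. Eif3a changed by 0.37 ± 0.061 (adjusted p = 0.00240) in wild-type and 0.48 ± 0.087 (adjusted p = 0.00481) in AcPbKO mice, and by 0.31 and 0.45 without the Xist controls. Eif3h changed by 0.27 ± 0.057 (adjusted p = 0.00686) and 0.19 ± 0.051 (adjusted p = 0.0221). Eif3h was at 0.26 and 0.20 without the Xist controls. The AcPbKO call of Eif3h ended without CTL-AcPbKO replicate 4 or 5 or SD-AcPbKO replicate 4, with adjusted p up to 0.0809.

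Eif3f, the other MPN-domain subunit and the partner of Eif3h (chr7:108934417-108942951), had the lowest fold change of all initiation factors tested in each genotype, close to that of Eif6. It had normalized counts of 4774, 4182 and 3987 in CTL-WT, 2920.1, 2612 and 3247 in SD-WT, 4519, 4889 and 4482 in CTL-AcPbKO and 2486, 2959.8 and 2704 in SD-AcPbKO. The highest SD library of each genotype lay well below its lowest control. The fold change was -0.56 ± 0.090 (0.677-fold, adjusted p = 0.00211) in wild-type and -0.77 ± 0.074 (0.587-fold, adjusted p = 0.000610) in AcPbKO mice, and -0.71 and -0.73 without the Xist controls. It shares no 100-base stretch with another gene. Eif3m changed by -0.23 ± 0.063 in AcPbKO (adjusted p = 0.0253) and -0.25 ± 0.087 in wild-type mice (adjusted p = 0.0630), and the AcPbKO call ended without CTL-AcPbKO replicate 4 or 5 or SD-AcPbKO replicate 2 (up to adjusted p = 0.0868), with a term for Xist (adjusted p = 0.0631) and on thinning (adjusted p = 0.0603), the value being -0.23 without the Xist controls.

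**Figure D3:**
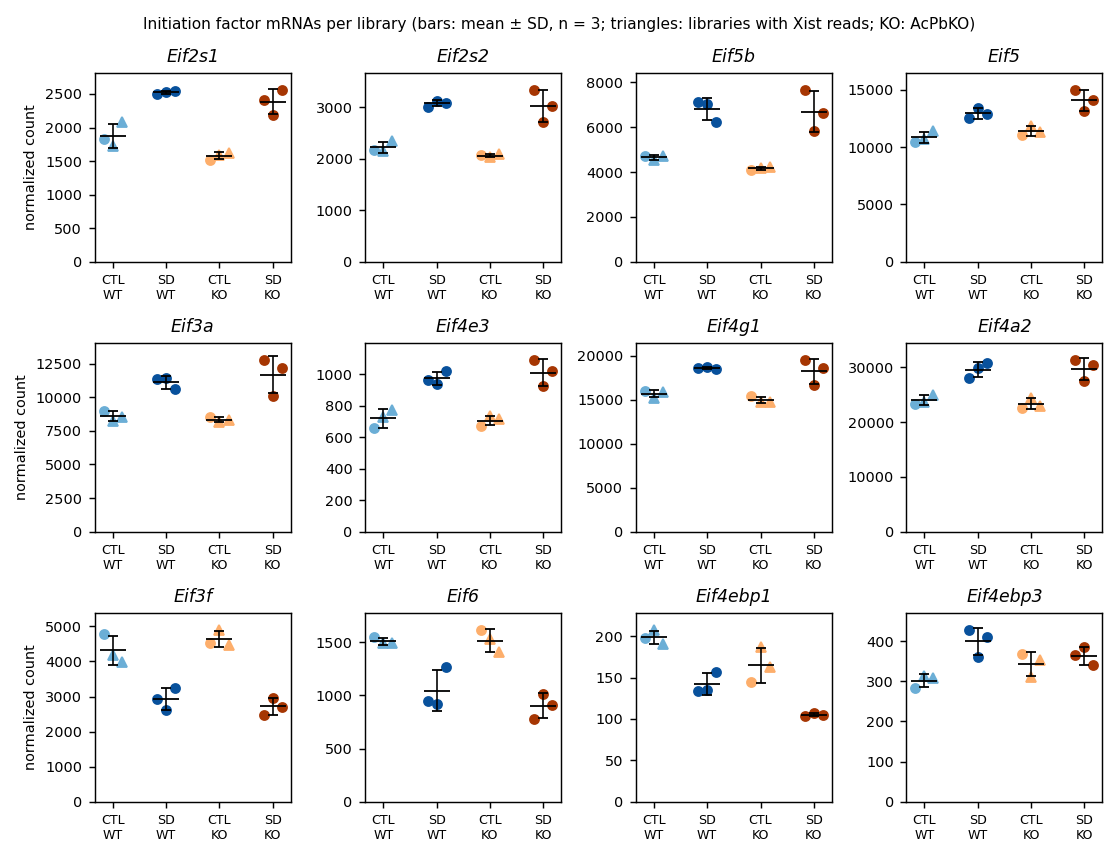
Normalized counts per library for 12 initiation factor genes, 1 panel each with the axis starting at 0. Points are libraries, triangles mark libraries with Xist reads, and bars give the mean ± SD of 3 libraries. The upper 8 genes rise from CTL to SD in both genotypes, Eif3f, Eif6 and Eif4ebp1 fall, and for Eif4ebp3 the SD libraries lie above the controls in wild-type mice and overlap them in AcPbKO mice.

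Among the cap-binding proteins, Eif4e3 and Eif4e2 rose in both genotypes. Eif4e3, an eIF4E relative (chr6:99625135-99666771), had normalized counts of 658, 729.6 and 772 in CTL-WT, 962, 941 and 1021 in SD-WT, 672, 733 and 716 in CTL-AcPbKO and 1089.5, 924 and 1023 in SD-AcPbKO. Eif4e2 (4EHP), a cap-binding protein that acts as a repressor, had normalized counts of 2328, 2511 and 2427 in CTL-WT, 3087, 3127 and 2867 in SD-WT, 2293, 2412 and 2528 in CTL-AcPbKO and 3176, 2905 and 3161 in SD-AcPbKO. In both genes all SD libraries lay above all controls of either genotype. Eif4e3 changed by 0.44 ± 0.082 in wild-type (adjusted p = 0.00418) and 0.52 ± 0.083 in AcPbKO mice (adjusted p = 0.00306), and Eif4e2 by 0.32 ± 0.062 (adjusted p = 0.00481) and 0.36 ± 0.064 (adjusted p = 0.00483). Leaving out the Xist controls gave 0.56 and 0.59 for Eif4e3 and 0.38 and 0.43 for Eif4e2. Eif4e itself, the main cap-binding protein, had 4955, 5102 and 5604 in CTL-WT and 4823, 5086 and 6065 in SD-WT, which overlapped (0.023 ± 0.087, adjusted p = 0.874). In AcPbKO mice Eif4e was called as higher (0.23 ± 0.063, adjusted p = 0.0275), a call that ended without CTL-AcPbKO replicate 3 or 4 or SD-AcPbKO replicate 2 or 4, with adjusted p up to 0.106. It ended as well with GC and length trends removed (0.10, adjusted p = 0.237), on thinning (adjusted p = 0.0532) and in 1 fit of all groups (adjusted p = 0.0517), and was at 0.30 without the Xist controls. Whether Eif4e3 and Eif4e2 changed more than Eif4e was not tested.

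The helicase gene Eif4a2 (chr16:23107444-23114136), the form of eIF4A abundant in brain, had normalized counts of 23284, 23594 and 24976 in CTL-WT, 27971, 29931 and 30695 in SD-WT, 22598, 24460.1 and 22862 in CTL-AcPbKO and 31243, 27423 and 30442 in SD-AcPbKO. It rose by 0.30 ± 0.066 in wild-type (adjusted p = 0.00905) and 0.35 ± 0.074 in AcPbKO mice (adjusted p = 0.00912), with no overlap between groups, and was at 0.34 and 0.40 without the Xist controls. Its close relative Eif4a1 had 8534, 8095 and 8552 in CTL-WT and 7592, 7200.1 and 9585 in SD-WT, the SD libraries lying on both sides of the controls, and changed by -0.058 ± 0.10 (adjusted p = 0.700) and 0.023 ± 0.060 (adjusted p = 0.805). Other annotated genes, among them a pseudogene, share 22.6% of the stretches of Eif4a1. Eif4a3, the helicase of the exon junction complex, and Eif4b and Eif4h, the RNA-binding partners of eIF4A, were called in neither genotype. In Eif4h, however, every SD library lay below every control of its genotype. Normalized counts were 16274 to 16775.5 after SD against 17339 to 17876 in wild-type mice. In AcPbKO mice they were 14591 to 14966 against 16146 to 16859, and Eif4a3 was also lower there without overlap.

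All 3 scaffold genes had positive fold changes in both genotypes. Eif4g1, the main scaffold, had normalized counts of 15999, 15258 and 15834 in CTL-WT, 18563, 18712 and 18460.2 in SD-WT, 15397, 14766 and 14736 in CTL-AcPbKO and 19488, 16670.4 and 18591 in SD-AcPbKO. Eif4g2 (DAP5), a scaffold without the eIF4E site, had normalized counts of 34289, 34493 and 36829.5 in CTL-WT, 38906, 41936 and 41896 in SD-WT, 28280.5, 30246 and 30726 in CTL-AcPbKO and 38914, 35233 and 37428 in SD-AcPbKO. In neither gene did SD and CTL libraries of a genotype overlap. Eif4g1 changed by 0.24 ± 0.057 in wild-type (adjusted p = 0.0116) and 0.29 ± 0.071 in AcPbKO mice (adjusted p = 0.0187), and Eif4g2 by 0.22 ± 0.069 (adjusted p = 0.0426) and 0.32 ± 0.071 (adjusted p = 0.0109). Eif4g3 was called in AcPbKO mice only (0.24 ± 0.067, adjusted p = 0.0291), with 0.19 ± 0.079 in wild-type mice (adjusted p = 0.108). Without the Xist controls Eif4g1 was at 0.22 and 0.25, Eif4g2 at 0.25 and 0.40, and Eif4g3 at 0.20 in AcPbKO mice. With GC and length trends removed Eif4g2 was called in neither genotype, at 0.14 (adjusted p = 0.121) and 0.18 (adjusted p = 0.0581). In wild-type mice the call of Eif4g1 ended with a term for Xist (adjusted p = 0.0619) and without CTL-WT replicate 2 or SD-WT replicate 2 (up to adjusted p = 0.0676), and that of Eif4g2 without CTL-WT replicate 1 or 2 or SD-WT replicate 1 or 2 (up to adjusted p = 0.150) and with a pseudocount of 10 (adjusted p = 0.0555). In AcPbKO mice the calls of Eif4g1 and Eif4g3 both ended without CTL-AcPbKO replicate 4 or 5 or SD-AcPbKO replicate 2 or 4, with adjusted p up to 0.0731 and 0.104, and that of Eif4g3 also with a term for Xist (adjusted p = 0.102).

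The eIF4E-binding proteins, which compete with eIF4G for eIF4E, did not move as 1 group. Eif4ebp1 (chr8:27260329-27276674) had normalized counts of 197, 207 and 191 in CTL-WT, 133, 135 and 157 in SD-WT, 145, 187 and 163 in CTL-AcPbKO and 103, 107 and 105 in SD-AcPbKO. Every SD library was below every control of its genotype, and the SD-AcPbKO libraries were the lowest of all 12. The fold change was -0.49 ± 0.13 in wild-type (adjusted p = 0.0189) and -0.64 ± 0.15 in AcPbKO mice (adjusted p = 0.0141), and -0.48 and -0.46 without the Xist controls. The wild-type call ended with a term for Xist (adjusted p = 0.0901) and without CTL-WT replicate 2 or SD-WT replicate 1 or 2 (up to adjusted p = 0.0778), and the AcPbKO call without CTL-AcPbKO replicate 4 or SD-AcPbKO replicate 2 (up to adjusted p = 0.0582) and on thinning to equal depth (-0.54, adjusted p = 0.0637).

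Eif4ebp2, the binding protein that predominates in brain, had normalized counts of 1144, 1075 and 1065 in CTL-WT, 1372, 1375 and 1052 in SD-WT, 1078, 1153 and 1140.4 in CTL-AcPbKO and 1398, 1256 and 1185 in SD-AcPbKO. SD-WT replicate 4 lay below all CTL-WT libraries while its 2 companions lay above them, and the AcPbKO groups did not overlap. Its fold change was 0.20 ± 0.10 in wild-type (adjusted p = 0.188) and 0.19 ± 0.078 in AcPbKO mice (adjusted p = 0.108), called in neither. Eif4ebp3 had normalized counts of 284, 314 and 307 in CTL-WT, 427, 362 and 410.3 in SD-WT, 368, 311 and 354 in CTL-AcPbKO and 365, 385 and 339.8 in SD-AcPbKO. It was higher after SD in wild-type mice with no overlap (0.40 ± 0.10, adjusted p = 0.0174, lost without SD-WT replicate 1 at adjusted p = 0.0834), and in AcPbKO mice the groups overlapped (0.082 ± 0.11, adjusted p = 0.615). The wild-type call also ended on thinning to equal depth (0.31, adjusted p = 0.0677), and the value was 0.49 without the Xist controls. Another annotated gene on the same strand shares 62.8% of the stretches of Eif4ebp3, so reads in those stretches cannot be told apart from that gene's. Eif4enif1 (4E-T), which carries eIF4E into the nucleus and to processing bodies, had normalized counts of 3003, 2699 and 2916 in CTL-WT, 3676, 3834 and 3561 in SD-WT, 3019, 2834 and 2753 in CTL-AcPbKO and 3902, 3456 and 3694 in SD-AcPbKO. It rose with no overlap by 0.36 ± 0.063 in wild-type (adjusted p = 0.00313) and 0.36 ± 0.066 in AcPbKO mice (adjusted p = 0.00504), and was at 0.30 and 0.29 without the Xist controls.

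Eif6, which keeps the large ribosomal subunit from joining too early and takes part in making it (chr2:155819832-155826925), fell in both genotypes. It had normalized counts of 1547, 1492 and 1494 in CTL-WT, 949, 923 and 1269 in SD-WT, 1614, 1531 and 1406 in CTL-AcPbKO and 779.8, 1018 and 911 in SD-AcPbKO. The groups stayed apart, with SD-WT replicate 4 the SD library nearest to the controls. The fold change was -0.54 ± 0.11 (0.685-fold, adjusted p = 0.00587) in wild-type and -0.75 ± 0.10 (0.594-fold, adjusted p = 0.00162) in AcPbKO mice, and -0.58 and -0.84 without the Xist controls. Eif5a2, the second gene of the hypusine-bearing factor eIF5A, had normalized counts of 3313, 3528 and 3793 in CTL-WT, 2628, 2876 and 3267 in SD-WT, 3295, 3561 and 3628 in CTL-AcPbKO and 2925, 3399 and 2941 in SD-AcPbKO. It was called as lower in wild-type mice (-0.28 ± 0.085, adjusted p = 0.0341) and not in AcPbKO mice (-0.18 ± 0.074, adjusted p = 0.112), whereas Eif5a was called as lower in AcPbKO mice (-0.23 ± 0.063, adjusted p = 0.0274) and not in wild-type mice (-0.17 ± 0.071, adjusted p = 0.102). The Eif5a2 call ended without CTL-WT replicate 2 or 3 or SD-WT replicate 1 or 2 (up to adjusted p = 0.142), and the Eif5a call without CTL-AcPbKO replicate 4 or 5 or SD-AcPbKO replicate 2 or 4 (up to adjusted p = 0.105). A term for Xist ended both calls, with -0.19 (adjusted p = 0.195) for Eif5a2 and -0.23 (adjusted p = 0.0712) for Eif5a, and removing GC and length trends ended that of Eif5a (-0.14, adjusted p = 0.0898). Without the Xist controls Eif5a2 was at -0.19 in wild-type and Eif5a at -0.19 in AcPbKO mice.

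Leaving out 1 library at a time could not change the sign of the 19 wild-type and 24 AcPbKO calls, since their SD and CTL libraries did not overlap. Of these genes, 11 and 12 respectively were called in every such fit. In wild-type mice these were Eif2s1, Eif2s2, Eif5b, Eif3a, Eif3f, Eif3h, Eif4a2, Eif4e2, Eif4e3, Eif4enif1 and Eif6. In AcPbKO mice they were Eif2s1, Eif2s2, Eif5, Eif5b, Eif3a, Eif3f, Eif4a2, Eif4e2, Eif4e3, Eif4g2, Eif4enif1 and Eif6. Without SD-WT replicate 4 the number called in wild-type mice was 27, 17 higher and 10 lower. Without CTL-WT replicate 2 or SD-WT replicate 2 it was 12. Over all genes these 3 fits called 6222, 2699 and 2836, against 5186 in the main fit. In AcPbKO mice the number of initiation factors called was 15 without CTL-AcPbKO replicate 4 or SD-AcPbKO replicate 2. It was 16 without either CTL-AcPbKO replicate 5 or the library with choroid plexus mRNA, SD-AcPbKO replicate 4. Over all genes the calls were 3417, 3393, 4126 and 3575 in that order, against 5633 in the main fit. When every library was thinned to the depth of the smallest, 17 initiation factors were called in wild-type and 20 in AcPbKO mice. The same fits called 4415 and 5074 of all genes.

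Levels per length, averaged over 12 libraries, spanned from 4987 normalized counts per kb of exon for Eif4a2 to 69.5 for Eif4ebp1, Eif4e1b aside. After Eif4a2 the most abundant mRNAs per kb were Eif1 (4412), Eif5a (4116), Eif4g2 (3518) and Eif4h (2947), and next to Eif4ebp1 the scarcest were Eif2ak2 (78.3) and Eif2b3 (79.3). Levels of eIF3 subunits per kb ranged from 407 (Eif3e) to 2892 (Eif3h), although the proteins form 1 complex. Exon length was the union of all annotated transcripts, which lowers the value of genes with rare long forms.

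**Figure D4:**
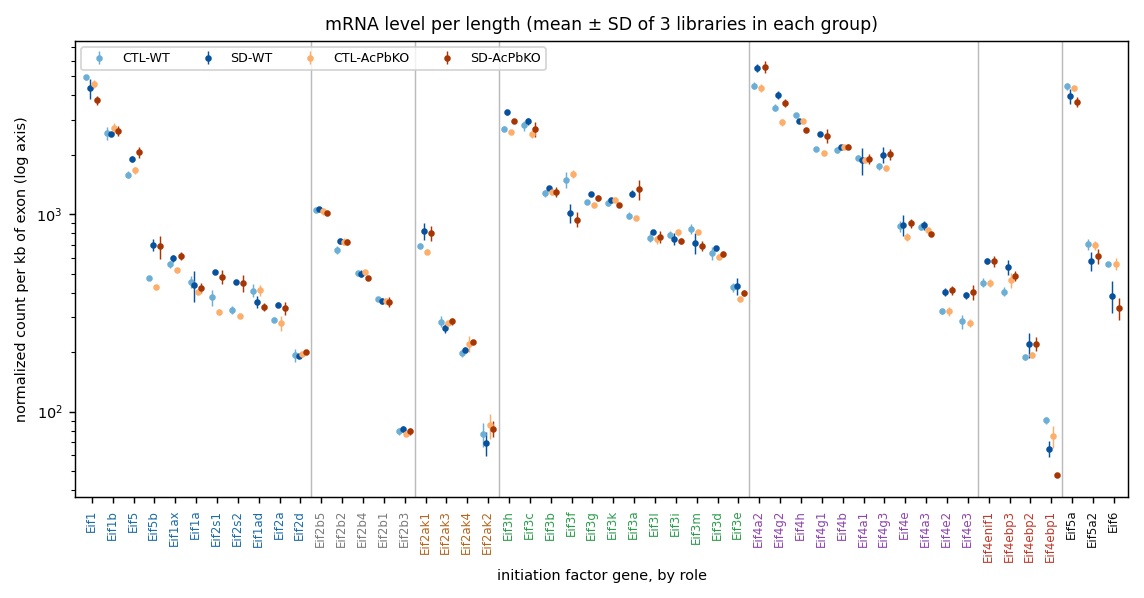
Normalized counts per kb of exon for 50 initiation factor genes, on a log axis, as the mean ± SD of 3 libraries in each of the 4 groups, with genes grouped by role and ordered by level within each role. Differences between genes, from Eif4a2 to Eif4ebp1, are far larger than the differences between groups within a gene.

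Between genotypes no initiation factor was called. In undisturbed mice 0 of 51 genes passed the test for CTL-AcPbKO against CTL-WT, where 0.0197% of all genes did (4 of 20273), and 7 (13.7%) had an unadjusted p under 0.05, against 8.53% of all genes (1730, of which 864 were lower). All 7 were lower in CTL-AcPbKO, namely Eif1a, Eif2s1, Eif5b, Eif3c, Eif3e, Eif4e and Eif4g2. Eif4g2 was the furthest, with every CTL-AcPbKO library below every CTL-WT library (-0.24 ± 0.061, adjusted p = 0.355 by limma), and it was the only one called by DESeq2, while edgeR called 0. After SD, again 0 of 51 genes passed for SD-AcPbKO against SD-WT, where 0.0145% of all genes did (3 of 20621), and 6 (11.8%) had an unadjusted p under 0.05, against 6.13% of all genes (1265), with 0 called by edgeR and 0 by DESeq2. Of these Eif2ak4 was higher in SD-AcPbKO and Eif1, Eif3h, Eif4a3, Eif4h and Eif4ebp1 were lower. Eif4ebp1 had the largest difference (-0.43 ± 0.13, adjusted p = 0.644 by limma), its SD-AcPbKO libraries at 103 to 107 normalized counts lying below the SD-WT libraries at 133 to 157. The median log2 difference of the initiation factors was -0.040 in undisturbed mice and -0.035 after SD, against 0.00063 and 0.0020 over all genes.

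Whether SD acted differently in AcPbKO and WT mice was tested as an interaction in 1 fit of all 12 libraries, which was called for 0 of 51 genes by limma, edgeR and DESeq2, and the share of all 20978 genes called by limma was 0%. An unadjusted p under 0.05 was found for 1 initiation factor, Eif4ebp3, whose SD effect was lower by 0.32 ± 0.14 on the log2 scale in AcPbKO mice (adjusted p = 0.986 by limma), and for 839 of all genes. For the genes with the largest SD effects the interaction was 0.13 ± 0.12 (Eif5b), 0.16 ± 0.10 (Eif2s1), 0.076 ± 0.10 (Eif2s2), -0.21 ± 0.13 (Eif3f), -0.21 ± 0.17 (Eif6) and -0.16 ± 0.18 (Eif4ebp1). Each of these is under 2 standard errors, which does not show that the genotypes responded alike.

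Genes that regulate initiation without an Eif name gave a similar count. Of 44 tested, 18 were called in wild-type (13 higher, 5 lower) and 20 in AcPbKO mice (13 higher, 7 lower), 40.9% and 45.5% against 25.4% and 27.4% of all genes, with median log2 fold changes of 0.042 and 0.073. Called in both were 16 of the 44, against 3871 of the 20013 genes tested in both genotypes. The 11 that rose in both were Abce1, the ribosome recycling ATPase (0.47 ± 0.055 and 0.60 ± 0.091), Nck1, an adaptor that binds eIF2 (0.41 ± 0.089 and 0.60 ± 0.090), Dhx29, a scanning helicase (0.36 ± 0.067 and 0.54 ± 0.072), the mTOR inhibitor Deptor (0.36 ± 0.10 and 0.58 ± 0.10), the S6 kinase gene Rps6kb1, the stress-induced transcription factor Atf4, the PKR and PERK inhibitor Dnajc3, the 4EHP partner Gigyf2, and Larp1, Pabpc4 and Paip2, which act on the mRNA tail or on TOP mRNAs. The 5 that fell in both were the mTORC1 subunit Rptor (-0.23 ± 0.067 and -0.26 ± 0.062), the mTOR inhibitors Ddit4 (-0.36 ± 0.11 and -0.45 ± 0.086) and Sesn2 (-0.27 ± 0.089 and -0.41 ± 0.10), the eIF4E kinase Mknk2 (-0.29 ± 0.068 and -0.38 ± 0.090) and the GCN2 activator Gcn1l1 (-0.33 ± 0.073 and -0.39 ± 0.060). Adjusted p for these 16 was 0.0480 or lower in both genotypes. The list thus held mTOR inhibitors on both sides. For these regulators, and for the elongation and termination factors below, only the main fits are given. Values without the Xist controls, with a term for Xist, on thinning or without single libraries are not shown for them.

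Of 17 elongation and termination factors, 4 were called in wild-type mice (2 higher, 2 lower) and 4 in AcPbKO mice (1 higher, 3 lower), 23.5% in each, near the share of all genes. Gspt2, a release factor GTPase, rose in both (0.43 ± 0.070, adjusted p = 0.00228, and 0.48 ± 0.093, adjusted p = 0.00674). Dhps and Dohh, the 2 enzymes that make the hypusine of eIF5A, both fell in both genotypes, with log2 fold changes of -0.41 ± 0.081 (adjusted p = 0.00549) and -0.49 ± 0.083 (adjusted p = 0.00376) for Dhps and of -0.39 ± 0.065 (adjusted p = 0.00269) and -0.56 ± 0.083 (adjusted p = 0.00226) for Dohh. Dohh had 2403, 2556 and 2442 normalized counts in CTL-WT and 1880.3, 1781 and 2013 in SD-WT, with no overlap.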

How the data were processed

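Total RNA of somatosensory cortex was made into stranded mRNA libraries, and per the labels' processing notes the authors aligned reads with HISAT2 2.2.1 to mm10, counted reads per gene (featureCounts in the notes, HTSeq in the study's methods) and ran DESeq2 1.31.16. The gene annotation and the strand setting of the counting are not given in the sources used here. The 5 deposited tables hold, for 24421 genes, normalized counts of each library as a signal (read count divided by a size factor of the pair of groups compared) and their mean. The same deposited tables hold the authors' own comparisons as log2 fold changes with standard errors, a Wald score, and p-values raw and adjusted, of which none was used. Of 16 labelled mice, 12 have a column, and the other 4 were not analysed here.

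Every deposited signal value, 732630 in all, came out as a whole read count within 0.01 (100%), and counts did not differ between tables. Levels are these reads divided by median-of-ratios size factors over 12 libraries. Replicates are separate mice, and no pair of libraries agreed within sampling noise. The main test was limma 3.58.1 (R 4.3.3) with a variance trend on log2(normalized count + 1) of the table of each pair of groups, over all genes read at least once in its 6 libraries, with Benjamini-Hochberg adjustment over all of them and a threshold of 0.05, so that fold changes of low genes are understated. The interaction was fitted on all 12 libraries together. The comparison of SD-AcPbKO with CTL-WT, which mixes both factors, was left out. Alternatives were edgeR 4.0.16 and DESeq2 1.42.0 on the recovered read counts, pseudocounts of 0.1 and 10, a mean of at least 10, no variance trend, a threshold of 0.01, centring, thinning, 1 fit of all groups, a term for Xist, a replicate block and leaving out each library. Leaving out the Xist controls and removing GC and length trends (loess, span 0.3) were added after seeing the data. Fits were tested on simulated data.

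The genes, lists and tests were chosen with earlier results of these data known. Values in every library are given for genes called in both genotypes, for the 5 highest and 5 lowest fold changes among called genes, and for the eIF2 kinases and eIF4E-binding proteins. Eif2b5, Eif4e and Eif4a1 were added in part after their values were seen. Coordinates, exon lengths and shared 100-base stretches come from GENCODE M21 (GRCm38, the same assembly as mm10), in which 23336 of the genes (95.6%) matched, and promoters from RefSeq (GRCm38.p6). Python 3.11.15 was used for tables.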

Additional observations from a re-analysis of the deposited data

How the results depend on the processing

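Among the summary counts, edgeR, DESeq2, both pseudocounts, the mean filter, centring, thinning, 1 fit of 4 groups, the Xist term and the removal of GC and length trends left the number of initiation factors called after SD within 1.5 times, at 15 to 22 in wild-type and 20 to 25 in AcPbKO mice. Of all genes, these alternatives called 4057 to 5445 and 5074 to 6485, against 5186 and 5633 in the main fits. A threshold of 0.01 left 11 in wild-type and 10 in AcPbKO mice, with 2360 and 2656 of all genes. Dropping the variance trend left 13 and 12, with 2536 and 3608 of all genes. Leaving out each library in turn gave 12 to 27 and 15 to 25, with 2699 to 6222 and 3393 to 5412 of all genes. Leaving out the Xist controls gave 0 and 0 in fits of 1 genotype, which have 2 residual degrees of freedom, and 0 and 7 in a fit of 4 groups. The replicate block gave 0 and 0, as it did over all genes. It had 1 residual degree of freedom, since only 2 numbers are shared per comparison, and the labels tie the numbers to no shared litter or day. The correlation of same-numbered deviations was 0.10 and -0.075 in wild-type mice, -0.14 and -0.018 in AcPbKO mice and 0.22 and 0.23 between SD-WT and SD-AcPbKO. CTL-AcPbKO and CTL-WT share 1 number, so no block was fitted there. For that comparison DESeq2 called 1 gene (lower in AcPbKO) and all other alternatives 0, and for the other genotype comparison and the interaction every alternative run gave 0. Of 1008 values of single genes under an alternative, 802 kept their sign and side of the threshold, 187 lost the call, 4 gained it and 15 changed sign, none of them a value that was called. The sign changes were in Eif2ak4 in wild-type mice with the Xist term (-0.0094) and in 4 genes in AcPbKO mice. These were Eif2ak2 with the block (0.032), leaving out each replicate in turn (-0.18 to 0.016, positive without CTL-AcPbKO replicates 4 or 5) and without Xist controls (0.20 in both fits), Eif2ak3 with the Xist term (-0.020), the block (-0.012) and leaving out each replicate in turn (-0.0098 to 0.050, negative without SD-AcPbKO replicate 2), Eif2ak4 with the Xist term (-0.027), without Xist controls (-0.11 in both) and without GC and length trends (-0.0080), and Eif4ebp3 without Xist controls (-0.017 in both). The causes were not tested. Each gene apart from Eif4e1b had 106 or more reads in each library. Removing GC and length trends made most AcPbKO fold changes of called genes smaller in size. Eif2s1, Eif2s2, Eif3a, Eif4a2 and Eif6 were then at 0.48, 0.40, 0.35, 0.24 and -0.57 in AcPbKO mice, all still called. The AcPbKO values of Eif1ad, Eif3f, Eif3h, Eif3m, Eif4g1 and Eif4ebp1 became larger in size.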

Other observations

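The gamma subunit of eIF2, which binds GTP and the initiator tRNA, is made in mice from the X-linked Eif2s3x and the Y-linked Eif2s3y, and both were left out above because their level follows sex. In the 8 libraries without Xist reads, Eif2s3x had 2216 to 2478 normalized counts and Eif2s3y 1622 to 2310. In the 4 controls with Xist reads, Eif2s3x had 3097 to 3516 and Eif2s3y at most 1.12. Summed over both genes, the libraries without Xist reads held 3962 in CTL-WT replicate 1, 4039 in CTL-AcPbKO replicate 3, 4472, 4541 and 4770 in SD-WT and 4416, 4306 and 4506 in SD-AcPbKO, and the 4 controls with Xist reads held 3097 to 3517. Without the Xist controls, which leaves 1 control in each genotype, Eif2s3x changed after SD by 0.063 ± 0.061 (adjusted p = 0.553 by limma) in wild-type and 0.030 ± 0.075 (adjusted p = 0.805) in AcPbKO mice, and Eif2s3y by 0.40 ± 0.095 (adjusted p = 0.133) and 0.25 ± 0.075 (adjusted p = 0.156), with neither called.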
